A study of Mus musculus with 29 samples.

Results

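C/EBPβ binding in wild-type (WT) mouse liver was compared between 6pm and 6am from the peak lists of its ChIP-seq, an assay that sequences the DNA recovered with an antibody to a bound protein. The members were all peaks of both lists, 26226 at 6pm and 21644 at 6am, together 47870 of the 107997 peaks in the 9 ChIP-seq lists of the series. A peak was called shared where it overlapped a peak of the other time by at least 1 bp. The livers came from male mice of 12 weeks with the genotype GR+/+, litter-mates of GRdim mice, on a background back-crossed to BALB/c. 6pm was the start of the dark phase and 6am the start of the light phase of the light cycle. The 6am C/EBPβ list is labelled as untreated, and the 6pm list and the GR lists of both times carry no treatment entry. Both C/EBPβ lists were made with the same antibody. The 6pm C/EBPβ list was numbered in the series with the GR lists, and the 6am and prednisolone C/EBPβ lists in a later run of numbers. Whether they were also prepared or sequenced apart is not stated. Such a difference cannot be told apart from the time of day. The GR lists set beside them came from WT livers and from GRdim livers, whose glucocorticoid receptor carries a mutation known to impair its dimerization, both at 6pm and at 6am. A further pair of WT lists, of C/EBPβ and GR at 6am, came from mice with prednisolone pellets at 12 mg/kg for 24 h. Each list is 1 pool of 2 replicates, so there is no spread between replicates, no p-value is given, and the 95% intervals cover the counting of peaks only. Whole tissue was used, so that fewer bound cells and less binding per cell cannot be told apart.

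C/EBPβ is a basic leucine zipper transcription factor that binds DNA as a dimer, alone or with other C/EBP proteins. In liver it is known for roles in glucose metabolism, the acute-phase response and regeneration, and C/EBP proteins often occupy the same enhancers as the glucocorticoid receptor (GR). GR is a nuclear receptor and transcription factor that enters the nucleus with its ligand. The main glucocorticoid of mice, corticosterone, follows a daily cycle that peaks near the start of the dark phase in these nocturnal animals.

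The 6pm and 6am lists described nearly the same strong C/EBPβ sites and differed mainly among weak ones. The 6pm list was 1.21 times as long. Together they held 27649 regions, of which 20221 were in both lists. The 6pm-only regions numbered 6005, or 21.7% of all regions, and the 6am-only regions 1423, or 5.15%. Since these are all the members, those percentages are also the background of the comparison. Of the 6pm peaks, 77.1% (95% Wilson interval 76.6 to 77.6) had a 6am peak, and of the 6am peaks 93.4% (93.1 to 93.7) had a 6pm peak. No peak overlapped a neighbour of its own list, and every shared 6pm peak paired with exactly 1 shared 6am peak. Their centres lay close together, with a median offset of 10 bp, and 99.3% of the pairs were within 100 bp.

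The share found at the other time followed the score that the authors gave each peak. The normalization of this score is not stated, so scores of different lists are not comparable in size, here and below. In the highest-scoring of 10 equal parts of the list, 99.8% of 6pm peaks were found at 6am and 99.95% of 6am peaks at 6pm. In the lowest-scoring part, 28.2% (26.5 to 29.98) of 6pm peaks were found at 6am, and 72.8% (70.9 to 74.7) of 6am peaks at 6pm. All of the 100 highest-scoring peaks of each time were listed at the other time. The plot of shares by score shows the lists parting in their lower parts. The lengths of the lists bear on these shares: with both lists limited by score to 21644 peaks, 86.4% were found in either direction, with 2952 6pm-only and 2952 6am-only peaks.

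**Figure D1:**
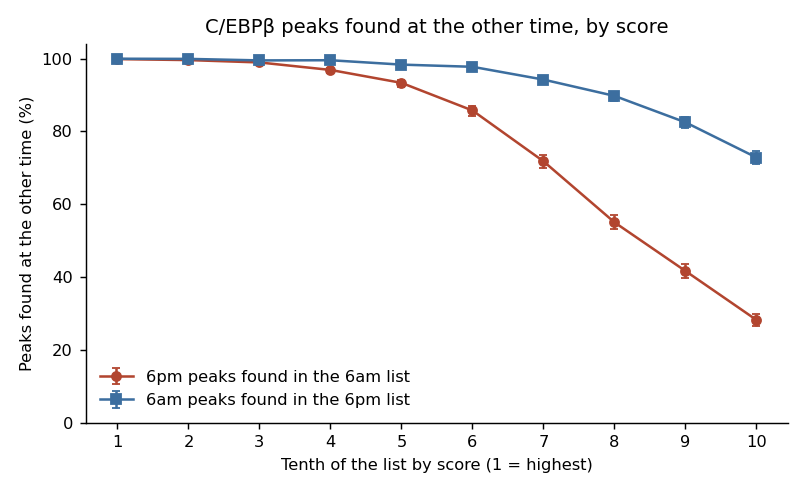
Share of C/EBPβ peaks found at the other time (percent, y axis) in 10 equal parts of each list by falling score (x axis), for 6pm peaks (circles) and 6am peaks (squares), with 95% Wilson intervals as bars. Shares in the highest part are 99.8% for 6pm and 99.95% for 6am peaks, and in the lowest part 28.2% and 72.8%.

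Peaks of a single time were mostly weak. The 6pm-only peaks had a median score of 2.41 (quartiles 2.19 and 2.82), against 4.42 (3.23 and 6.46) for the shared peaks in the same list. The 6am-only peaks had a median of 2.29 (2.13 and 2.57), against 3.82 (2.73 and 5.99) for the shared peaks at 6am. The lowest score in both lists was 2.01, and 82.1% of the 6pm-only and 89.7% of the 6am-only peaks scored under 3. Only 205 of the 6005 6pm-only peaks and 37 of the 1423 6am-only peaks scored 4 or more. A peak absent from a list can be a weak one below its lowest score.

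Some of these peaks lay beside a peak of the other time. The nearest 6am centre was within 500 bp of 6.23% of the 6pm-only peaks, and the nearest 6pm centre within 500 bp of 13.9% of the 6am-only peaks. The median distance was 6643 bp for 6pm-only and 5666 bp for 6am-only peaks. The 5 highest-scoring 6pm-only peaks were all of this adjoining kind, 211 to 416 bp from a 6am centre. The first lay at chr4:46883003-46883202 in the mm9 build and scored 10.73, and the highest 6am-only peak, at chr4:46883214-46883413 with 9.24, was its neighbour. The next 6pm-only peaks were at chr8:47555569-47555768 with 9.03, at chr15:10132834-10133033 with 8.77, at chr8:23501623-23501822 with 8.47 and at chr4:99602516-99602715 with 8.32. The other 6am-only peaks of the first 5 were at chr13:35108196-35108395 with 7.23, at chr2:116945737-116945936 with 6.71, at chr4:101367138-101367337 with 6.15 and at chr17:74297553-74297752 with 5.83. All 5 6am-only peaks lay 211 to 301 bp from a 6pm centre. At all of these sites C/EBPβ was listed at both times at most 416 bp apart.

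Peaks with no centre of the other time within 1000 bp numbered 5110 at 6pm and 1084 at 6am. The 5 highest-scoring of them at 6pm all overlapped a 6pm GR peak and none overlapped a 6am GR peak. At chr19:30237373-30237572, C/EBPβ scored 7.21 at 6pm and GR 5.48, with centres 15 bp apart, while the nearest 6am GR peak was 7547 bp away. At chr7:147819006-147819205 C/EBPβ scored 6.76 at 6pm, and the region also held C/EBPβ after prednisolone, with a score of 11.56. GR was listed there at 6pm with 2.89 and after prednisolone with 4.17. The most remote of these was at chr3:110905682-110905881, with a C/EBPβ score of 6.43 at 6pm, 241669 bp from any 6am C/EBPβ centre and 31 bp from a 6pm GR centre. The remaining ones, at chr6:53595095-53595294 and at chr18:33595682-33595881, scored 6.02 and 5.98. All 5 were also in the prednisolone C/EBPβ list. That list held 48.1% of the 183 6pm-only peaks scoring from 4 to below 6 and 72.7% of the 22 scoring 6 or more.

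The matching 5 peaks at 6am held no GR peak of either time. They lay at chr8:127940208-127940407, at chr11:108192306-108192505, at chr5:20772996-20773195, at chr6:28632005-28632204 and at chr14:51711179-51711378. Their 6am scores were 5.67, 5.14, 4.38, 4.26 and 4.18. The nearest 6am GR centre was 1777 bp away at the chromosome 14 peak and at least 30738 bp away at the other 4. Among shared peaks in the same score ranges, a GR peak of the same condition lay at 63.4% (61.4 to 65.5) of 2136 at 6pm and at 22.7% (21.4 to 24.2) of 3456 at 6am, in lists of 14270 GR peaks at 6pm and 5781 at 6am. With 5 regions each, the counts are a description of these regions only.

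At the 20221 shared regions the order of the scores was largely kept. Each region was given its percentile among the shared regions at 6pm and at 6am, so that both rankings have the same length. The Spearman correlation of the scores over these regions was 0.875, as a description, since regions of 1 library share its depth and antibody. The percentile at 6pm minus that at 6am had an SD of 14.5 points, and 58.9% of regions stayed within 10 points. It exceeded 20 points upward at 1583 regions, or 7.83%, and downward at 1633, or 8.08%. At the top, 69 of the 100 highest peaks of 6pm were among the 100 highest of 6am, as were 780 of the first 1000 and 8599 of the first 10000.

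The 5 regions with the highest scores over both lists held a GR peak in the WT and GRdim lists of 6pm and 6am. At chr14:76193037-76193236, C/EBPβ scored 22.06 at 6pm and 22.83 at 6am, first in both lists. At chr17:84235490-84235689 it scored 19.13 at 6pm and 19.93 at 6am, and at chr7:71041822-71042021 19.05 at 6pm and 21.18 at 6am. At chr8:129331373-129331572 it scored 19.13 at 6pm and 18.65 at 6am, and at chr4:150059305-150059504 18.31 at 6pm and 18.69 at 6am. Within each list these regions kept to the first 12 places.

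Of the 5 regions with the largest upward difference in rank, 4 held a 6pm GR peak, and of the 5 with the largest downward difference none did. The largest upward differences were 73.4 points at chr7:138592747-138592946, 72.6 points at chr3:129153766-129153965, 69.8 points at chr6:108484806-108485005, 69.5 points at chr5:53670794-53670993 and 68.3 points at chr3:50988716-50988915. The C/EBPβ score at the chromosome 7 site was 7.32 at 6pm and 2.21 at 6am, and GR there scored 9.98 at 6pm and 2.97 at 6am. At the first chromosome 3 site, C/EBPβ scored 9.88 at 6pm and 2.57 at 6am. In WT, GR was listed there with 7.53 at 6pm, and the nearest WT 6am GR centre was 118137 bp away. The GRdim lists held a GR peak there at both times, with 4.92 at 6pm and 2.1 at 6am. At the chromosome 6 site, C/EBPβ scored 6.17 at 6pm and 2.05 at 6am, and GR was listed with 6.36 in the WT 6pm list and was not in the WT 6am list. The chromosome 5 site was the exception, with its nearest 6pm GR centre 25269 bp away.

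The largest downward differences were -67.9 points at chr13:58867079-58867278, -63.7 at chr8:47614972-47615171, -63.5 at chr9:48404900-48405099, -62.8 at chr13:113958174-113958373 and -61.8 at chr4:89152761-89152960. The C/EBPβ scores at the chromosome 13 sites were 2.30 and 3.16 at 6pm and 5.71 and 7.84 at 6am. The chromosome 9 site held a GR peak at 6am, with a score of 2.28, and none at 6pm. The other 4 held no GR peak of either time. All 5 were in the prednisolone C/EBPβ list, as were 4 of the 5 with the largest upward difference. That list held 81.7% of all shared 6pm peaks and 87.0% of the 532 regions with a downward difference of at least 30 points.

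**Figure D2:**
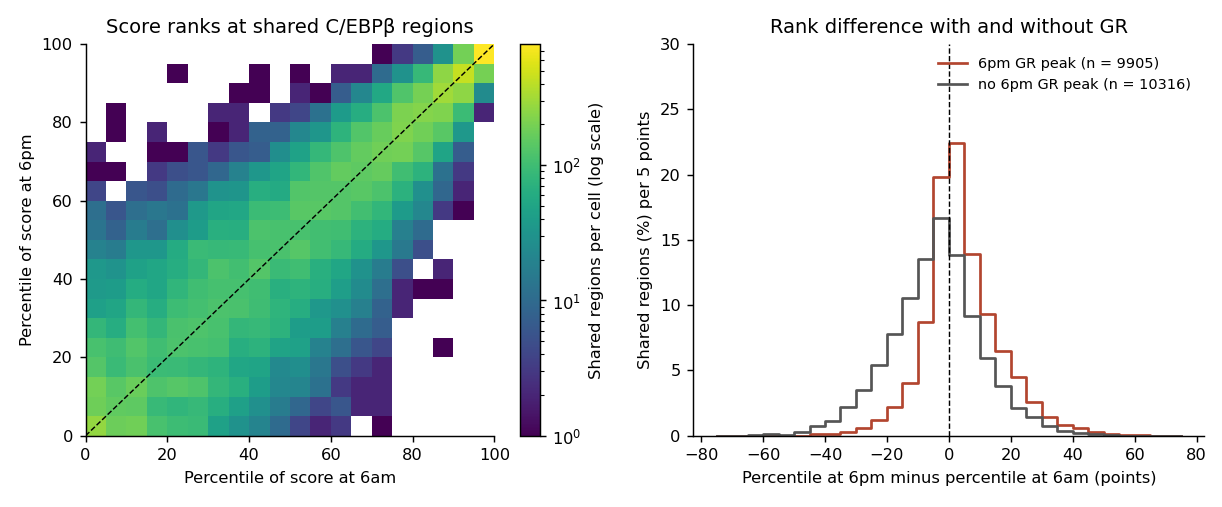
Left, number of shared C/EBPβ regions (colour, log scale) by percentile of the score at 6pm (y axis) and at 6am (x axis) among the 20221 shared regions, with equality as a dashed line. Right, share of regions (percent per 5 points) by percentile at 6pm minus percentile at 6am, for the 9905 regions with a WT 6pm GR peak and the 10316 without; the first distribution lies to the right of the second.

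This pattern held over all shared regions. Of the 1583 regions ranked over 20 points higher at 6pm, 66.2% (63.8 to 68.5) overlapped a WT 6pm GR peak, against 14.5% (12.9 to 16.3) of the 1633 ranked over 20 points lower. The difference was 51.7 points (Newcombe interval 48.7 to 54.5). Between these, 60.2% of regions with an upward difference of at most 10 points and 47.6% of those with a downward one of at most 10 points held a 6pm GR peak. Over all regions ranked higher at 6pm the share was 61.3% (60.4 to 62.3), and over all ranked lower it was 36.6% (35.6 to 37.5), against 49.0% of all shared regions. In the plot by rank difference the share is lowest at the large downward differences and varies little above 0. Seen from GR, the median rank difference was 2.87 points (2.56 to 3.30) at the 5414 regions with GR at 6pm but not 6am and 1.98 (1.69 to 2.30) at the 4491 with GR at both times. It was -3.61 points (-3.92 to -3.34) at the 10265 regions with GR at neither time. The ranges between the quartiles overlap, from -3.13 to 11.7 points with GR at 6pm but not 6am and from -13.1 to 4.63 points with GR at neither time.

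The contrast had the same direction in other GR lists, at other ranks and with a shorter list. With the 6pm GR list limited to its 5781 highest scores, the difference was 32.4 points (29.96 to 34.9). In the WT 6am GR list, 25.7% (23.6 to 27.9) of the regions ranked higher and 6.61% (5.51 to 7.92) of those ranked lower at 6pm held a peak. Over all shared regions that share was 22.5%, close to the share of those ranked higher. In the GRdim 6pm list, 41.8% (39.4 to 44.3) and 5.08% (4.12 to 6.26) held a peak, in the same order, against 28.6% of all shared regions. GR ChIP-exo marks the borders of bound protein by digesting the DNA up to it with an exonuclease. It gave 59.9% (57.5 to 62.3) and 13.9% (12.3 to 15.7) with a WT 6pm GR border, against 43.7% of all shared regions. Upward and downward regions were then compared within ranges of equal mean percentile. The difference for WT 6pm GR was 37.0 points (29.3 to 44.0) at mean percentiles of 0 to 20, 49.6 (45.2 to 53.6) at 20 to 40, 61.0 (55.5 to 65.8) at 40 to 60 and 61.6 (51.8 to 69.2) at 60 to 80. Above 80 only 5 regions were ranked over 20 points higher and 1 lower, too few to compare. The sources used here do not say whether the GR and C/EBPβ libraries came from the same livers, and the part of shared material in this relation was not tested.

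**Figure D3:**
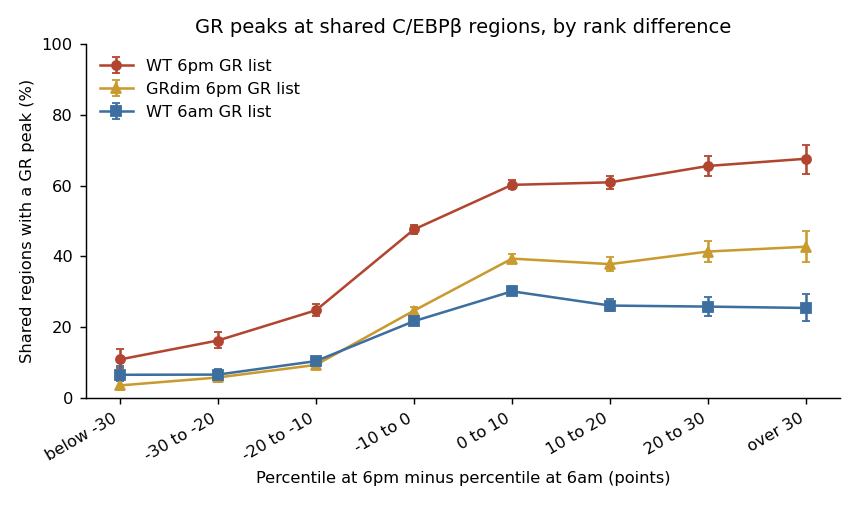
Share of shared C/EBPβ regions with a GR peak (percent, y axis) in 8 ranges of percentile at 6pm minus percentile at 6am (x axis), for the WT 6pm (circles), GRdim 6pm (triangles) and WT 6am (squares) GR lists, with 95% Wilson intervals. The WT 6pm share is 10.9% below -30 points and 67.6% over 30 points.

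A GR peak of the same condition lay at 45.3% (44.7 to 45.9) of all 6pm and 21.3% (20.8 to 21.8) of all 6am C/EBPβ peaks, and less often at peaks of a single time. It lay at 32.8% (31.6 to 34.0) of the 6pm-only and 4.99% (3.97 to 6.25) of the 6am-only peaks, a difference of 27.8 points (26.1 to 29.4). This value moved with the length of the GR lists: with both GR lists at 5781 peaks the shares were 9.53% and 4.99%, a difference of 4.54 points (3.09 to 5.81). Measured in 1 GR list for both, the 6pm-only and 6am-only shares were 32.8% and 8.71% in the 6pm list, and 7.99% and 4.99% in the 6am list. With the C/EBPβ lists at equal length, they were 43.0% and 4.44% in the GR list of the same condition. The direction was the same each time.

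Against shared peaks, the answer turned with the score. Over all peaks, 32.8% of the 6pm-only and 49.0% (48.3 to 49.7) of the shared 6pm peaks held a 6pm GR peak, a difference of -16.2 points (-17.6 to -14.8). GR was more frequent at high C/EBPβ scores, and shared peaks have the higher scores. Among peaks of like score below 6, the 6pm-only peaks held a 6pm GR peak more often. A shared peak of low 6pm score had, by the matching, also reached the lowest score of the 6am list. In the lowest of 6 score ranges the shares were 20.1% of 6pm-only and 11.4% of shared peaks, a difference of 8.71 points (5.76 to 11.4). At scores from 3 to below 4 they were 51.4% and 36.2%, a difference of 15.2 points (11.6 to 18.8). At scores from 4 to below 6 they were 71.6% and 51.2%, a difference of 20.4 points (13.3 to 26.6). Of the 22 6pm-only peaks scoring 6 or more, 77.3% held GR, against 76.1% of shared ones, with an interval of the difference from -19.6 to 13.8 points.

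The 6am list gave the opposite sign at scores below 3. In the lowest score range, 2.56% of 6am-only and 9.05% of shared 6am peaks held a 6am GR peak, a difference of -6.48 points (-8.24 to -4.47). At scores from 2.5 to below 3 the shares were 4.98% and 13.0%, a difference of -8.05 points (-10.5 to -4.49). From 3 upward the intervals of the difference included 0, with 109 6am-only peaks from 3 to below 4 and fewer beyond. The GRdim 6pm list gave the same sign as WT at 6pm for scores below 6: from 3 to below 4, 27.7% of 6pm-only and 16.2% of shared peaks held a GRdim peak. With the WT 6am GR list, the differences at 6pm peaks of these scores were smaller. They were 0.770 points (-0.983 to 2.26) in the lowest range, 2.10 (0.241 to 3.87) in the next and 0.594 (-1.17 to 2.42) from 2.5 to below 3. From 3 to below 4 the difference was 0.0941 points (-2.18 to 2.64), and from 4 to below 6 it was 7.96 (1.78 to 15.0).

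**Figure D4:**
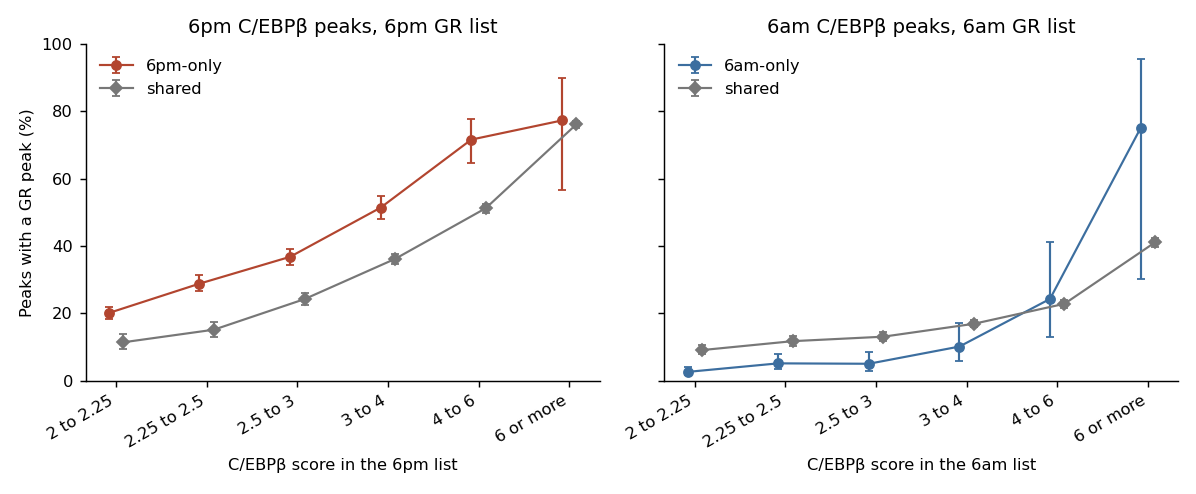
Share of C/EBPβ peaks with a WT GR peak of the same condition (percent, y axis) by C/EBPβ score (x axis), in the 6pm lists (left) and the 6am lists (right), for peaks of a single time (circles) and shared peaks (diamonds), with 95% Wilson intervals. From 3 to below 4 at 6pm, the shares are 51.4% of 6pm-only and 36.2% of shared peaks.

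Of all 14270 GR peaks at 6pm, 60.5% (59.7 to 61.3) had no peak in the shorter 6am GR list, which held 5781. At 6pm-only C/EBPβ peaks this share was higher, and at shared ones lower. Of the 1968 6pm-only peaks with a 6pm GR peak, 1501 (76.3%, 74.3 to 78.1) had no 6am GR peak, against 54.7% (53.7 to 55.6) of the shared peaks with GR at 6pm. The GR peaks at 6pm-only sites had a median 6pm score of 3.00, and those at shared sites 3.69. The centres of both proteins nearly coincided, with a median offset of 22 bp at 6pm-only and 24 bp at shared sites. Although GR was not listed at 6am at those 1501 sites, 63.4% (60.9 to 65.8) held a GR ChIP-exo border of the 6pm library and 51.0% (48.4 to 53.5) one of the 6am library. At the 4024 6pm-only peaks with GR at neither time, 10.6% (9.65 to 11.5) held a 6pm border and 10.1% (9.24 to 11.1) a 6am border. Shared 6pm peaks of the same GR states had similar or higher shares. At the 5414 with GR at 6pm but not 6am, 64.1% held a 6pm border and 56.7% a 6am border. At the 10265 with GR at neither time the shares were 10.6% and 11.6%. The ChIP-exo libraries held 43.1 M tags at 6pm and 55.7 M tags at 6am.

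The distance to GR gave the same order as the overlap. The median distance from a 6pm-only C/EBPβ centre to the nearest 6pm GR centre was 3847 bp (3329 to 4328), against 330 bp (240 to 423) for shared 6pm peaks. From a 6am-only centre to the nearest 6am GR centre it was 60354 bp (50421 to 71317), against 24698 bp (23365 to 26150) for shared 6am peaks. These distances depend on how many GR peaks are listed. With both GR lists at 5781 peaks, the 6pm-only median was 42989 bp and that of shared 6pm peaks 24637 bp. Measured to the 6am GR list, the 6pm-only median was 45295 bp, and measured to the 6pm list, the 6am-only median was 16709 bp.

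Among the peaks that touched no 6pm GR peak, a GR centre lay within 10 kb of 40.9% (39.4 to 42.4) of the 4037 6pm-only and 37.5% (36.5 to 38.4) of the 10316 shared peaks, a difference of 3.46 points (1.68 to 5.24). Over 100 kb from a GR peak of the same condition lay 14.2% of the 6pm-only and 41.7% of the 6am-only peaks, against 11.7% of shared 6pm and 31.6% of shared 6am peaks.

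**Figure D5:**
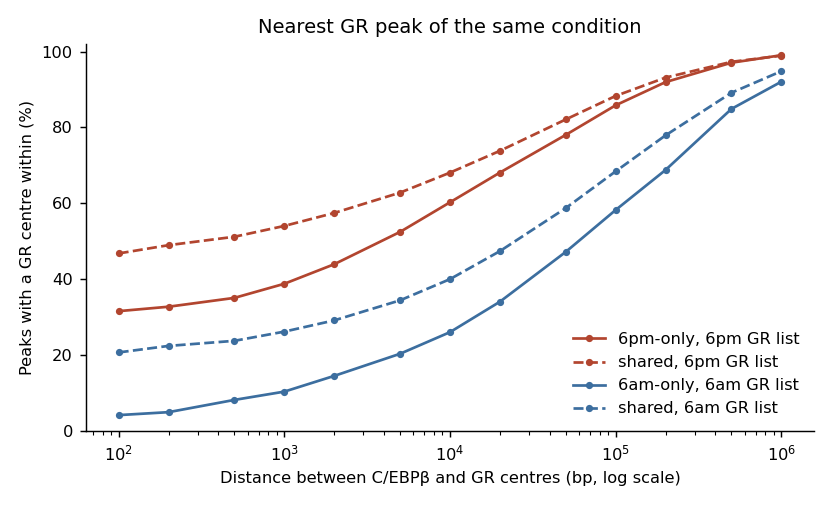
Cumulative share of C/EBPβ peaks (percent, y axis) with a GR centre of the same condition within a given distance (bp, log scale, x axis), for 6pm-only and shared peaks against the 6pm GR list and for 6am-only and shared peaks against the 6am GR list. Within 10 kb the shares are 60.3% and 68.1% at 6pm and 26.1% and 40.0% at 6am.

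The prednisolone C/EBPβ list, which had no part in dividing the peaks, held most of the shared peaks and fewer of the others. It held 29.1% (27.9 to 30.2) of the 6pm-only peaks, 37.4% (34.9 to 39.9) of the 6am-only peaks and 81.7% (81.2 to 82.2) of the shared peaks in the 6pm list. The 6pm-only minus the 6am-only share was -8.31 points (-11.1 to -5.57). These shares are over all scores, and single-time peaks mostly scored low. In the lowest of 6 score ranges, the list held 22.8% of 6pm-only and 47.9% of shared 6pm peaks. The difference there was -25.1 points (-29.0 to -21.1). For 6am-only and shared 6am peaks it was -13.1 points (-17.4 to -8.68), from 32.5% and 45.7%. From 4 to below 6 the differences were -42.4 points at 6pm and -45.3 at 6am. The sign was the same in every score range. Prednisolone livers were taken at 6am, so the time of day of that list is the one of the 6am list. Both lists also belong to the later run of sample numbers, which cannot be told apart from the time of day here.

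The 6pm-only peaks at GR peaks were found less often after prednisolone than the other 6pm-only peaks. Of the 1968 with a 6pm GR peak, 17.7% (16.1 to 19.5) were in the prednisolone C/EBPβ list, against 34.6% (33.2 to 36.1) of the 4037 without, a difference of -16.9 points (-19.1 to -14.6). The sign was the same in each score range below 6, for example 26.6% with and 53.0% without GR at scores from 3 to below 4. From 6 upward it turned, with a difference of 16.5 points (-20.4 to 56.0) over 17 peaks with and 5 without GR. The 6am-only peaks had the same sign with 6am GR. Of the 71 with a 6am GR peak 12.7% were in the prednisolone list, against 38.7% of the 1352 without. That difference was -26.0 points (-32.4 to -16.0). Among shared 6pm peaks, the shares with and without GR were close, 81.1% and 82.3%, a difference of -1.16 points (-2.23 to -0.0936). Regions ranked over 20 points higher at 6pm were also found less often after prednisolone than those ranked lower, 71.2% (68.9 to 73.4) against 84.0% (82.2 to 85.7). The difference was -10.9 points at mean percentiles of 0 to 20, -16.4 at 20 to 40 and -7.87 at 40 to 60. At 60 to 80 it was -2.26 points (-6.75 to 1.42), with 96.5% and 98.8% in the prednisolone list. The prednisolone GR list was shorter than the 6pm list, with 4304 peaks, and held 4.53% of the 6pm-only, 2.53% of the 6am-only and 15.6% of the shared 6pm peaks.

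Single-time peaks were spread over the genome. The 6pm-only share of the 6pm peaks lay between 20.8% on chromosome 13 and 25.7% on chromosome 17 among the autosomes, and was 26.0% (21.6 to 30.9) on the X chromosome. The 6am-only share of the 6am peaks lay between 5.07% on chromosome 9 and 8.16% on chromosome 10, and was 10.1% (7.11 to 14.3) on the X chromosome. The intervals of most chromosomes overlap.

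Most single-time peaks stood alone. Chained at gaps of up to 10 kb, 74.7% of the 6pm-only peaks and 91.1% of the 6am-only peaks had no other of their kind in the chain, and the 6pm-only set is the larger by number. There were 4 6pm-only chains of 5 peaks, and the 3 with the highest scores lay at chr15:31181058-31194508 and at chr8:25676771-25686926 and at chr8:72717236-72743247. In the first chromosome 8 stretch all 5 overlapped a 6pm GR peak and 1 a 6am GR peak. In the second chromosome 8 stretch 3 of 5 overlapped a 6pm GR peak, and in the chromosome 15 stretch 2 of 5 did. The 6am-only chains reached 3 peaks, with the highest scores at chr8:129350254-129356413, at chr5:136166869-136178731 and at chr5:123247933-123252999. The last was the only one of these 3 in which every peak overlapped a 6pm GR peak. In it 1 of the 3 peaks overlapped a 6am GR peak, and 3 shared C/EBPβ peaks lay inside the chain. No peak of the chr8:129350254-129356413 and chr5:136166869-136178731 chains overlapped a 6am GR peak.

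Over all shared regions, 50.1% (49.4 to 50.8) ranked higher at 6pm than at 6am, and regions near single-time peaks departed slightly from this. A shared region lay within 10 kb of 3396 6pm-only peaks. For 56.4% (54.7 to 58.0) of these peaks, that region ranked higher at 6pm than at 6am. For the 708 6am-only peaks with such a neighbour, the share was 43.9% (40.3 to 47.6). The same shared region can count for several single-time peaks, and the intervals do not allow for this. The 76 of these 708 6am-only peaks with a 6pm GR peak lay on the other side, with 53.9% (42.8 to 64.7), an interval that includes the share of all shared regions. Among the 6pm-only peaks the shares were close, 55.6% of 1323 with and 56.9% of 2073 without a 6pm GR peak. The median rank differences, 1.44 points (1.07 to 2.03) beside 6pm-only and -0.983 points (-1.86 to -0.312) beside 6am-only peaks, were small against the SD of 14.5 points over all shared regions.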

How the data were processed

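Per the labels, ChIP-seq of C/EBPβ and GR and ChIP-exo of GR were made from crosslinked liver, and each deposited list pools 2 replicates. The submitters' processing notes name Bowtie, HOMER and mm9, with no roles or versions; the threshold for calling a peak is not stated. Deposited peaks are 200 bp wide with a score assigned by the authors, whose unit and normalization are not given. Ranks and score ranges were therefore formed only within a list. Scores of named regions are printed for each list, and their sizes in different lists are not comparable. ChIP-exo files hold borders of 10 bp with a count of tags and RPM, per the file headers; tags over RPM gave the library size. ChIP-seq depth is unknown.

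Peaks were matched at 1 bp of overlap. Shares have Wilson and differences Newcombe 95% intervals, and medians order-statistic intervals. Shared peaks were paired by nearest centre and ranked among the pairs. Named regions are the 5 first of each set by score, mean rank or rank difference and the 3 longest chains, ties by score. Members, lists and comparisons were chosen with earlier results of these data known. Comparisons by score range and mean percentile, and of GR with rank difference, were added after seeing the data. The code was tested on simulated lists. Positions are in mm9, counted from 1; an mm9 sequence and annotation were not used here, so no genes or motifs are given. The 2 RNA polymerase II samples, the 12 inputs and 4 ChIP-exo lists were not analysed here. Intervals came from statsmodels 0.14.6 under Python 3.11.15, with scipy 1.17.1, pandas 2.3.3, numpy 2.4.6 and, for plots, matplotlib 3.10.9.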

Additional observations from a re-analysis of the deposited data

How the results depend on the processing

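Directions turned within ranges of C/EBPβ score. The share of 6pm-only minus shared peaks with a 6pm GR peak was -16.2 points, and within ranges of C/EBPβ score, chosen after seeing the data, it was 8.71, 13.7, 12.6, 15.2, 20.4 and 1.15 points from the lowest range to 6 and above. It was -13.9 points with GR lists of equal length, -8.95 with C/EBPβ lists of equal length, -10.6 with both (added after seeing the data) and -2.82 among the higher-scoring 50% of both lists. The cause was not tested. For 6am-only minus shared 6am peaks with a 6am GR peak, -17.5 points over all scores, the difference was 1.44 from 4 to below 6 and 33.9 from 6, with 33 and 4 6am-only peaks. The prednisolone share of 6pm-only peaks with minus without GR, -16.9 points, was 16.5 from 6. No other setting was run for the chains, the neighbours or the ChIP-exo borders by GR state.

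The share of 6pm peaks found at 6am was 76.5% with 100 bp of overlap or with centres within 100 bp, 78.5% with centres within 500 bp, 76.5% in the higher-scoring 50% and 86.4% at equal length. The share of 6am peaks found at 6pm was 92.7%, 92.7%, 94.3%, 92.7% and 86.4% under the same settings. In the higher-scoring 50%, 3085 6pm-only and 794 6am-only peaks were left, and at equal length 2952 of each. Rank differences over 20 points made up 20.6% of pairs in the higher-scoring 50%.

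With a GR centre within 1000 bp, the shares were 38.8% of 6pm-only, 10.4% of 6am-only, 54.1% of shared 6pm and 26.2% of shared 6am peaks. With GR centres within 100 bp, they were 46.8% of shared 6pm and 20.7% of shared 6am peaks. GR lists of equal length gave 9.53% of 6pm-only and 23.4% of shared 6pm peaks. C/EBPβ lists of equal length gave 43.0% of 6pm-only, 51.9% of shared 6pm and 24.0% of shared 6am peaks, and with GR lists of equal length as well 14.5%, 25.2% and 24.0%. In the higher-scoring 50% they were 59.9% of 6pm-only, 9.19% of 6am-only, 62.8% of shared 6pm and 32.6% of shared 6am peaks. The difference between 6pm-only and 6am-only peaks, 27.8 points, was 4.54 with GR lists, 38.6 with C/EBPβ lists and 10.1 with both at equal length, and 50.7 among the higher-scoring 50%.

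Median distances to GR were 42989 bp for 6pm-only and 24637 bp for shared 6pm peaks with GR lists of equal length, and 45295 and 24700 bp to the 6am list. To the 6pm list they were 16709 bp for 6am-only and 327 bp for shared 6am peaks. With 3 C/EBPβ lists of equal length, 33.6% of 6pm-only and 43.6% of 6am-only peaks were in the prednisolone list.

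For the GR share by rank difference, all settings were added after seeing the data. Against 51.7 points, the difference in 6pm GR share was 42.2 at a limit of 10 points, 56.7 at 30, 32.4 with the shortened GR list, and 37.0, 61.0 and 61.6 at mean percentiles of 0 to 20, 40 to 60 and 60 to 80. It was 19.1 points in the WT 6am list, 36.7 in GRdim 6pm, 13.5 in GRdim 6am, 12.7 in the WT prednisolone list, and 46.0 and 27.5 for ChIP-exo borders of 6pm and 6am. In the WT prednisolone list, 16.4% of regions ranked higher and 3.61% of those ranked lower held GR, against 15.6% of all shared regions.

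No paired analysis was possible because each list is 1 pool of 2 replicates; leaving out a replicate was not run, as the lists are pooled. ChIP-seq depth is unknown, and a list with a lowest score leaves out weaker binding.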
